A study of Mus musculus with 12 samples.

Results

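The 36 genes described here encode subunits of the receptors for GABA and glutamate, the main inhibitory and excitatory transmitters of the forebrain. They were taken by name as GABA-A (10 genes), GABA-B (2), AMPA (4), kainate (5), NMDA (7), delta (1) and metabotropic glutamate (7) receptor genes, out of 21951 protein-coding genes and 55450 genes in all in the GENCODE annotation. H3K4me3, the trimethylation of lysine 4 on histone H3 found at promoters that are active or held ready, was mapped with CUT&Tag. In this assay a transposase tethered to an antibody inserts sequencing adapters beside the mark. The tissue was the medial (MGE), lateral (LGE) and caudal (CGE) ganglionic eminence and the cortex (CTX) of wild-type C57BL/6J mouse embryos at E12.5. The protocol in the labels also says that nuclei of the regions were pooled in equal numbers, while each library carries the name of 1 region, and the lists are taken here as labelled. The labels describe 12 libraries, between 2 and 4 per region, from 2 replicates of each region. The authors merged them into 1 list of broad peaks per region before deposit. There is therefore no replicate error and no test for any difference between regions, and the lists hold no read counts. The study's methods give a read total for each replicate, lowest in sum for MGE and highest for CGE, and these totals were not used here.

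GABA-A receptors are chloride channels built of several subunits, and GABA-B receptors couple to G proteins as a dimer. AMPA, kainate and NMDA receptors are cation channels that carry fast excitatory transmission, delta receptors act mainly in synapse organization, and metabotropic glutamate receptors signal through G proteins. The ganglionic eminences generate most GABAergic neurons of the forebrain, while the cortical ventricular zone generates glutamatergic neurons. At this stage most of these cells are progenitors or newly born neurons, and mature synapses have yet to form.

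A gene was counted as marked in a list if a peak shared at least 1 base with the 2 kb on either side of any of its annotated transcription start sites (TSSs). Promoter sequence is shown for 8 genes that the results turn on. Gria2, Grin2a and Gabrb1 had the most peak bases of the AMPA, NMDA and GABA-A classes. Gabbr2, Gabra5, Gria1 and Grik3 were marked in some lists and not in others, and Gabra6 was marked in none. Each sequence runs 5′ to 3′ on the strand of the gene, in lower case, with every CpG dinucleotide in capitals. It spans from 250 bases before to 50 bases from the TSS that peaks covered in the most lists. For Gabra6, with no TSS under a peak, the gene 5′ end was used. In GRCm38 the intervals are chr3:80802786-80803085 (minus strand) for Gria2, chr16:9994874-9995173 (minus) for Grin2a, chr5:71657863-71658162 (plus) for Gabrb1, chr4:46991824-46992123 (minus) for Gabbr2, chr7:57509960-57510259 (minus) for Gabra5, chr11:57011560-57011859 (plus) for Gria1, chr4:125490450-125490749 (plus) for Grik3 and chr11:42321023-42321322 (minus) for Gabra6.
Gria2: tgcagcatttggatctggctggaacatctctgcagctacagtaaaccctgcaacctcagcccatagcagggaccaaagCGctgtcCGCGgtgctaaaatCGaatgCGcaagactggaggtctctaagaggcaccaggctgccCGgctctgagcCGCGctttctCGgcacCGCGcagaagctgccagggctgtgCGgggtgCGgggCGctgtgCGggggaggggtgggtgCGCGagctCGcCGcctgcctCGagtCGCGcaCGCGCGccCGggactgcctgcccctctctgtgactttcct
Grin2a: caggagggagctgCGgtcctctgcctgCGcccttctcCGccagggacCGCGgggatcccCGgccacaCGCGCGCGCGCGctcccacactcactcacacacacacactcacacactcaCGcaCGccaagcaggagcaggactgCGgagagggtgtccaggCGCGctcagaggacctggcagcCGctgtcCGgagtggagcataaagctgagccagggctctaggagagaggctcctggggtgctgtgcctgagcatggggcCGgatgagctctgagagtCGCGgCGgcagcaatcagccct
Gabrb1: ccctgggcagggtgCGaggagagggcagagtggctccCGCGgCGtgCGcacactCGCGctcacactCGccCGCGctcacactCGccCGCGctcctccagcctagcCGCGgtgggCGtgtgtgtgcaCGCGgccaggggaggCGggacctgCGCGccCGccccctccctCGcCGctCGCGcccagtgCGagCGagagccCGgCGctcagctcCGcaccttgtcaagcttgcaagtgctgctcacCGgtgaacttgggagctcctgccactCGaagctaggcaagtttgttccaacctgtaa
Gabbr2: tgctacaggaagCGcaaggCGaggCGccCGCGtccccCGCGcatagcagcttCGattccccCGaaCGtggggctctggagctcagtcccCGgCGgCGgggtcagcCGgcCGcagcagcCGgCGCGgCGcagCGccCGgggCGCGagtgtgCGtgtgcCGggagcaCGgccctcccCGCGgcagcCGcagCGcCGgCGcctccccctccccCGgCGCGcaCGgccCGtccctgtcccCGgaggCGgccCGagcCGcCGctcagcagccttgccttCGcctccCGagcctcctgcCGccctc
Gabra5: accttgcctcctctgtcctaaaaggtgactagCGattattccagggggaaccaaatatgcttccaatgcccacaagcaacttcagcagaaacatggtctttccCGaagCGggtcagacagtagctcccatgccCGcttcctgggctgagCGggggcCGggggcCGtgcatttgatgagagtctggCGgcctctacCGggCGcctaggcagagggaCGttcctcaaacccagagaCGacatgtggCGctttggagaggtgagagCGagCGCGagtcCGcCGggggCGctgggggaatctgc
Gria1: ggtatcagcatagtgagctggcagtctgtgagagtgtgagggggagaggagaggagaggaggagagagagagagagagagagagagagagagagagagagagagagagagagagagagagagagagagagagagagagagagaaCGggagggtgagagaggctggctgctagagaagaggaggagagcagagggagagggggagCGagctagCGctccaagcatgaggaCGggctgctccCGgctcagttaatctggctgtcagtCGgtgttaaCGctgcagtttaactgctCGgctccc
Grik3: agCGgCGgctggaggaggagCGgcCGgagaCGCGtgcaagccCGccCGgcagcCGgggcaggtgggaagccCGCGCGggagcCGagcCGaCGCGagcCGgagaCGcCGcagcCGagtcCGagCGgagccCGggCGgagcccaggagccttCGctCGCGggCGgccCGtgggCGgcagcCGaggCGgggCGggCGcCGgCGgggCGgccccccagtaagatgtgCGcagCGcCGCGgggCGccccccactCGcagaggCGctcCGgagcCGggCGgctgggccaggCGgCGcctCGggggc
Gabra6: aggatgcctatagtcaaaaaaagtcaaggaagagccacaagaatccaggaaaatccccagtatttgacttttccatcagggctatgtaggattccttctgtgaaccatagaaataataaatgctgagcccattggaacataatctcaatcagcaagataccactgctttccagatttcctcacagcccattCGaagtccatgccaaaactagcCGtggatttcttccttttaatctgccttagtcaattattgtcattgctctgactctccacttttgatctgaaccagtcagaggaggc

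The 300 bases shown of Grik3, a kainate receptor gene with a peak in the 3 eminences only, hold 50 CpGs, and those of Gabbr2 hold 45. The window of Gria2 holds 26 CpGs, that of Grin2a 23 and that of Gabrb1 33. Gabra5 has 19 and Gria1 has 8 beside a long GA repeat. The window of Gabra6 has 2 CpGs and a GC content of 42.0%, against 82.7% for Grik3.

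Most receptor subunit genes already carried H3K4me3 near a TSS. A peak was present at 33 of the 36 genes in the MGE list (91.7%), at 35 in both the LGE and the CGE list (97.2% each) and at 30 in CTX (83.3%). Over all protein-coding genes the shares in MGE, LGE, CGE and CTX were 62.2%, 62.3%, 62.7% and 61.5%. In all 4 lists 28 of the 36 genes were marked, beside 59.4% of protein-coding genes. Gabra6 was the 1 gene without a peak in any list, whereas 35.0% of protein-coding genes were marked in none. The other 7 genes were marked in 3 lists each, and 5.67% of protein-coding genes were marked in 1, 2 or 3 lists.

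**Figure D1:**
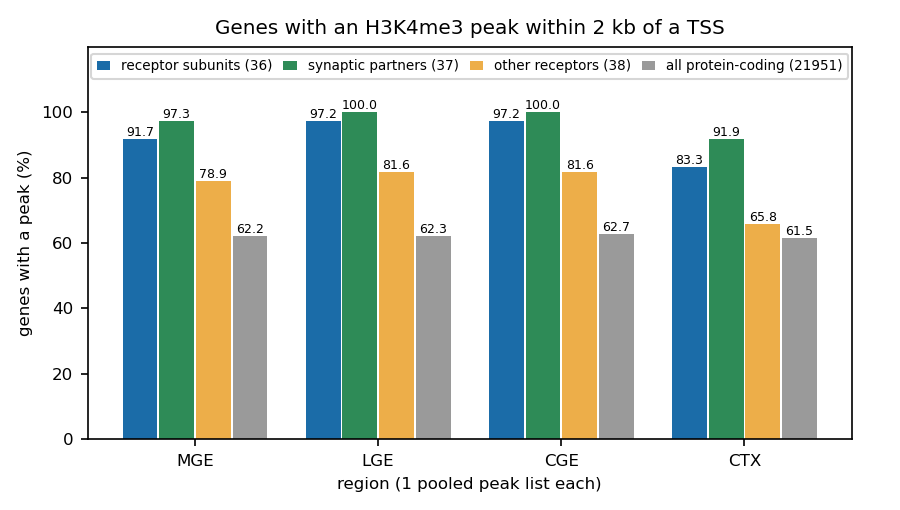
Percent of genes (vertical axis) with an H3K4me3 peak within 2 kb of an annotated TSS in the peak list of each region (horizontal axis), for the 36 receptor subunit genes, 37 synaptic partner genes, 38 receptors of other transmitters and all 21951 protein-coding genes. Bars have no error because each region has 1 pooled list. The receptor subunit genes stand between 83.3% and 97.2%, and protein-coding genes between 61.5% and 62.7%.

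Members of every class were marked in every region. By class, the GABA-A genes were marked 8 of 10 in MGE and 9 of 10 in the other lists. Both GABA-B genes were marked in the 3 eminences and 1 of them in CTX. All 4 AMPA genes and all 5 kainate genes were marked in the eminences, with 3 AMPA and 4 kainate genes marked in CTX. Of the 7 NMDA genes 6 were marked in MGE and 7 in each other list. The 7 metabotropic genes were all marked in the eminences, and 5 of them in CTX. Grid1, the delta subunit gene in the set, was marked in each list.

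By any peak within 2 kb, the regional absences fell into 2 groups. Gabbr2, Gria1, Grik3, Grm5 and Grm6 had a peak in MGE, LGE and CGE and none in CTX, a pattern held by 1.05% of protein-coding genes. Gabra5 and Grin3b had a peak in LGE, CGE and CTX and none in MGE, a pattern held by 0.670%. No receptor subunit gene was marked in cortex alone or in a single eminence. In bulk tissue, fewer marked cells and a weaker mark per cell cannot be told apart. The −log10 q of the peak caller, which is larger for stronger peaks and also grows with the number of reads, had a lower median over all peaks in the CTX (8.57) and MGE (5.19) lists than in LGE (40.0) and CGE (79.3). The authors' fold enrichment did not follow this order, with medians over marked protein-coding genes of 6.41, 6.25, 6.64 and 6.56 (MGE, LGE, CGE, CTX). The part of read number in the absences was not tested. The labelled regions were compared with their markers in the same lists. The MGE markers Nkx2-1, Lhx6 and Lhx8 had peaks in all 3 eminence lists and none in CTX, and all 4 LGE and all 3 CGE markers had a peak in every list. Of the 6 cortical markers 4 had a peak in every list, the eminences included, while Neurod6 had a peak in none and Neurod2 lacked one in MGE. Presence of a peak at these markers thus differed between CTX and the eminences at the MGE markers, and among the eminences at Neurod2 alone. None of the 4 microglial markers had a peak, and 1 of 3 endothelial, 1 of 3 erythroid and 1 of 3 oligodendrocyte markers had one in every list.

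Grik3, which encodes a low-affinity kainate receptor subunit, had the widest peak of any of the 36 genes in the eminences and no peak in CTX. The MGE peak spanned 2633 bp (chr4:125490098-125492730), the LGE peak 2841 bp and the CGE peak 3583 bp (chr4:125489774-125493356), each over its TSS. Its width was at the 99.1 percentile of marked protein-coding genes in MGE, the 96.8 percentile in LGE and the 98.7 percentile in CGE. In CTX the nearest peaks lay 169196 bp and 42305 bp beyond the window. Of the 9629 protein-coding genes whose highest −log10 q in the LGE list was at least the 38.3 of Grik3, 9 had no CTX peak (0.0935%). Grik3 is by construction the weakest of these genes, so the share, and those given for the genes below, describe genes that are mostly stronger.

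Gabbr2 encodes the subunit through which GABA-B receptors couple to G proteins. Its LGE peak was 2284 bp and its CGE peak 2724 bp wide, while in MGE it had 2 short peaks of 149 and 521 bp that lay downstream of the TSS. Its partner Gabbr1, which binds GABA, was marked in each list. Among protein-coding genes at least as strong as Gabbr2 in LGE (−log10 q of 12.7), 0.380% had no CTX peak.

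Gria1, the gene of an AMPA subunit central to activity-dependent receptor trafficking, was covered by an LGE peak of 2231 bp and a CGE peak of 2215 bp. In MGE the peak at its promoter was 118 bp, ending 36 bp before an annotated TSS, with another of 288 bp beside a TSS 165131 bp into the gene. In CTX the nearest peaks lay 762100 bp and 339647 bp beyond its windows. The share of protein-coding genes without a CTX peak at its LGE strength (−log10 q of 4.40) was 1.53%.

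Grm5 and Grm6 had shorter peaks. Grm5, a group I metabotropic receptor gene, had peaks of 540, 627 and 844 bp in the MGE, LGE and CGE lists, each over its TSS, and at its LGE strength 0.902% of protein-coding genes had no CTX peak. Grm6, the receptor gene of retinal ON bipolar cells, had 140, 857 and 814 bp in the same lists, and 2.67% of protein-coding genes at least as strong in LGE had no CTX peak. The MGE peak of Grm6 was among the weakest in that list, with a −log10 q of 1.05 (0.373 percentile). Of the 5 genes without a CTX peak, Grik3 and Gabbr2 had the highest −log10 q in LGE and Grm6 the lowest. The fold enrichment of their LGE peaks gave another order, with 4.93 for Grm5, 4.22 for Gabbr2, 3.38 for Gria1, 3.31 for Grik3 and 3.25 for Grm6.

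Gabra5, whose product joins extrasynaptic GABA-A receptors of hippocampal and cortical neurons, had no MGE peak within 78414 bp of its window. Its peak measured 1416 bp in the LGE list, 1284 bp in the CGE list and 138 bp in the CTX list. Of protein-coding genes at least as strong in LGE (−log10 q of 12.7), 0.165% had no MGE peak. Grin3b, an NMDA subunit gene known for expression in motor neurons, had narrow peaks of 364, 801 and 593 bp in the LGE, CGE and CTX lists, and the corresponding share was 1.38%. These shares were computed after the absences had been seen and describe how common each pattern is. No peak number was missing between the neighbours of any absent gene, so the lists hold no gap in numbering at these sites.

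**Figure D2:**
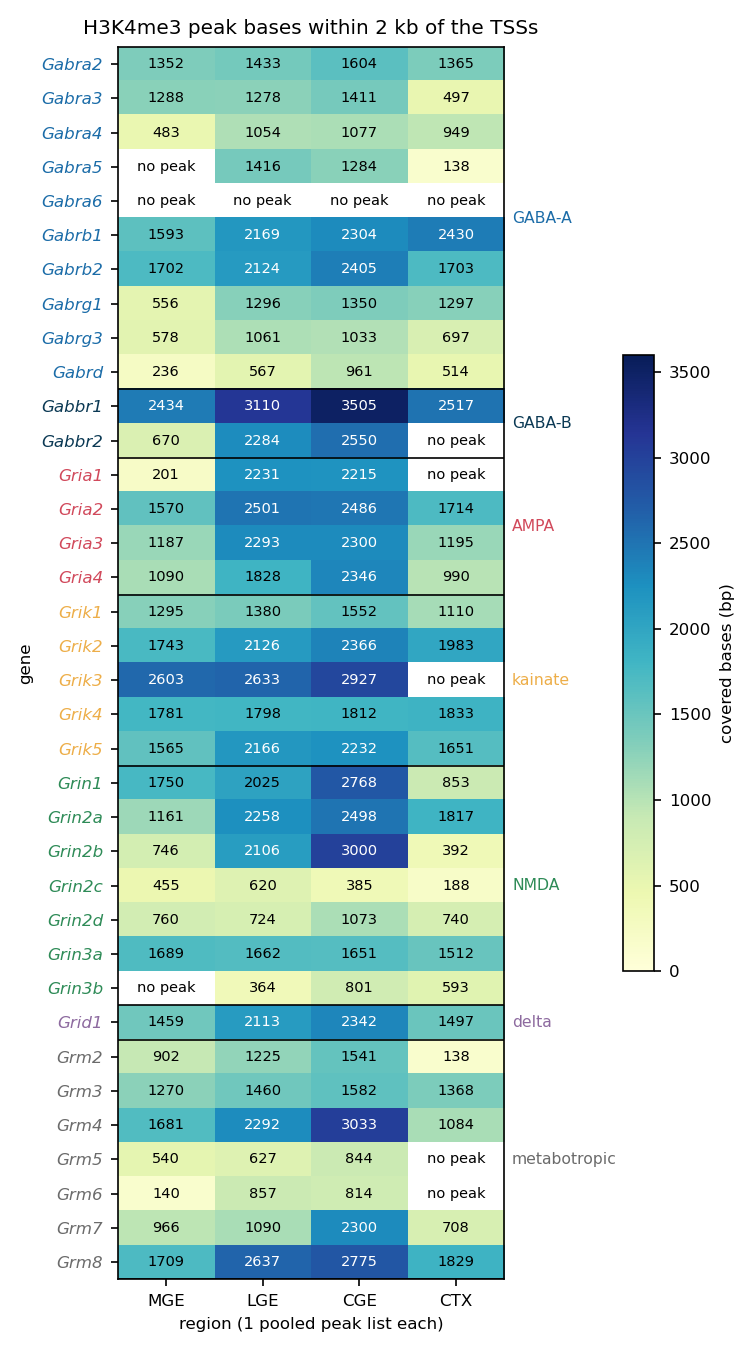
Bases under H3K4me3 peaks within 2 kb of the annotated TSSs (colour and printed number, bp) for each of the 36 genes (rows, grouped by receptor class) in the peak list of each region (columns), with white cells where no peak was called. Gabbr1 has the highest value in LGE, CGE and CTX, 5 genes are white in CTX only, 2 in MGE only and Gabra6 in all.

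The extent of the mark was measured as covered bases, the bases within the 2 kb windows that lie under peaks. Over the marked receptor genes the medians were 1270 bp (MGE, 33 genes), 1798 bp (LGE, 35), 2215 bp (CGE, 35) and 1152.5 bp (CTX, 30), against 1013, 1359, 1445 and 1053 bp for marked protein-coding genes. In the same order 20 of 33, 23 of 35, 24 of 35 and 17 of 30 genes lay above the protein-coding median. Covered bases can grow with the number of annotated TSSs. As a percent of the window, the counts above the protein-coding median were 16, 19, 22 and 14, fewer than the remaining marked genes in MGE and CTX, and the medians were 12.0, 20.3, 22.6 and 12.3% against 12.1, 17.1, 18.3 and 12.6%. Peaks of the LGE and CGE lists were wider across the genome, with a median width of 1168 and 1240 bp against 563 bp in MGE and 701 bp in CTX, and the part of this in the differences between regions below was not tested. Of the 28 genes marked in all lists 22 had their highest covered bases in CGE (78.6%), as did 76.8% of protein-coding genes marked in all lists. The order of regions at these genes was thus close to that of the lists as a whole.

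Within the GABA-A class, the alpha and beta subunits that form the GABA binding site differed widely. Gabra2, a main alpha subunit gene of the embryonic brain, was even, with 1352, 1433, 1604 and 1365 bp (MGE, LGE, CGE, CTX). Gabra3 had 1288, 1278 and 1411 bp in the eminences in the same order and 497 bp in CTX. The beta subunit gene Gabrb2 had 1702, 2124, 2405 and 1703 bp. Gabrb2 stood above and Gabra3 below the protein-coding median in LGE and CGE.

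Gabra4 and Gabrb1 lie head to head on chromosome 5 and shared a promoter peak. In LGE (chr5:71657392-71658445), CGE and CTX this peak covered TSSs of both genes, and in MGE it was 483 bp and covered a TSS of Gabra4 only, ending 78 bp before that of Gabrb1. The marks of the 2 genes at this site cannot be told apart. Gabrb1 also had its own peak at an internal TSS 41819 bp into the gene, of 1110, 1115, 1227 and 1481 bp (MGE, LGE, CGE, CTX). The internal peak had a higher −log10 q than the shared one in LGE (88.3 against 41.3), CGE (170 against 93.9) and CTX (16.7 against 11.3), and a lower one in MGE (8.84 against 9.67).

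Among the gamma and delta subunit genes, the mark of Gabrd was the shortest in every list. Gabrg1 had 556, 1296, 1350 and 1297 bp (MGE, LGE, CGE, CTX). Gabrg3 had 578, 1061, 1033 and 697 bp. Gabrd, whose product serves tonic inhibition in the mature brain, had 236, 567, 961 and 514 bp, at most at the 13.5 percentile of marked protein-coding genes. Gabra6, an alpha subunit gene of adult cerebellar granule cells, was the gene without a peak, and in each list the nearest peaks on either side lay at least 96657 bp from its window.

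Gabbr1 had the most covered bases of the 36 genes when summed over lists. It had 2434, 3110, 3505 and 2517 bp (MGE, LGE, CGE, CTX), between the 96.3 and 97.0 percentile of marked protein-coding genes. Gabbr1 has 11 annotated TSSs, however. As a percent of the window the values were 11.8, 15.0, 16.9 and 12.2%, below the protein-coding median in every list (12.1, 17.1, 18.3 and 12.6%). The covered bases came from 2 peaks in every list. The first lay over the gene 5′ end (chr17:37045352-37047440 in CGE) and the second over a TSS 4665 bp downstream (chr17:37050133-37051548 in CGE). The upstream peak was the stronger in each list, with a −log10 q of 213 against 68.8 in CGE.

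The peaks of AMPA genes differed in shape between regions. Gria2, the subunit gene whose product limits calcium entry, had 1 peak in LGE (2622 bp) and CGE (2658 bp) that ran from upstream of the gene 5′ end to more than 2 kb inside. In MGE and CTX it had 2 peaks, of 465 and 1167 bp in MGE and of 489 and 1225 bp in CTX, with an unmarked stretch between them. Gria3 showed the same form, with 2293 bp in LGE and 2300 bp in CGE as 1 peak, and pairs of 308 and 879 bp in MGE and 311 and 884 bp in CTX. The pair of Gria3 lay on both sides of the gene 5′ end and left it bare, while the first peak of the Gria2 pair covered it. Gria4 had 2 peaks in MGE (284 and 806 bp) and 1 in each other list (1828, 2346 and 990 bp in LGE, CGE and CTX).

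**Figure D3:**
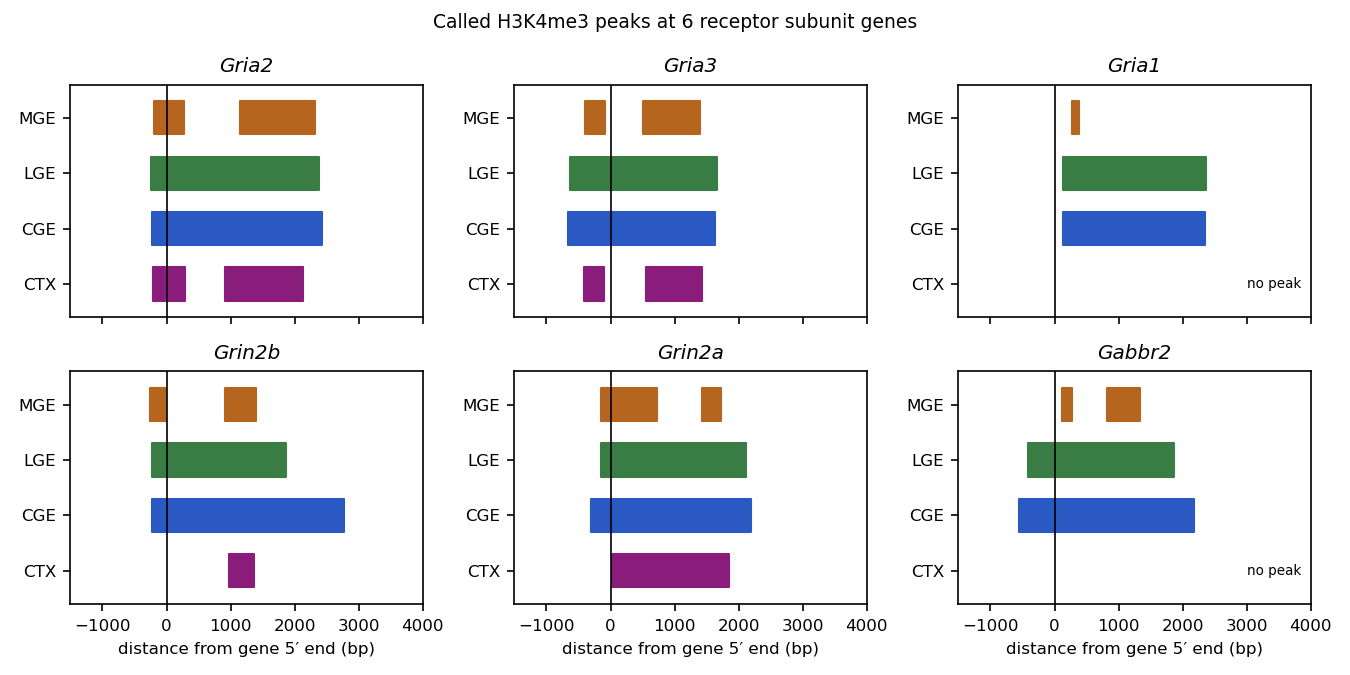
Called peaks (bars) around the gene 5′ end (vertical line at 0) of 6 receptor genes in the 4 lists (rows), with distance along the gene in bp on the horizontal axis and positive values inside the gene. Gria2 and Gria3 each have 1 peak in LGE and CGE and 2 in MGE and CTX, and Gria1 and Gabbr2 have none in CTX. The distant second MGE peak of Gria1 lies outside the range drawn.

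The divided form was counted over all 36 genes by joining peaks less than 1 kb apart. The widest peak then grew at 8 of the 33 marked genes in MGE (24.2%), which were Gabrg1, Gabbr2, Gria2, Gria3, Gria4, Grin2a, Grin2b and Grm4, beside 5.97% of marked protein-coding genes. In CTX it grew at 3 of 30 (10.0%), Gria2, Gria3 and Grm4, beside 4.60%. It grew at none in LGE, beside 0.124%, and at none in CGE, beside 0.0945%. With peaks joined, the median widest peak over the receptor genes went from 902 to 1288 bp in MGE, where that of protein-coding genes went from 972 to 1001 bp. In CTX the medians went from 1050 to 1216 bp and from 1016 to 1038 bp. Joining can only widen peaks, and whether the pieces belong to 1 marked stretch was not tested.

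Peaks that lay beside a TSS rather than over it showed a related pattern. In MGE 9 of the 33 marked genes (27.3%) had no peak over any of their own TSSs, beside 7.98% of marked protein-coding genes. In CTX the count was 5 of 30 (16.7%), beside 7.37%. It was 2 of 35 in LGE (5.71%, beside 5.31%) and 2 of 35 in CGE (5.71%, beside 4.64%), near the background. Counting only peaks over a TSS, 24 genes were marked in MGE, 33 in LGE and CGE and 25 in CTX. Of the 21951 protein-coding genes, 13656 were marked by any peak in MGE, and 1090 of these had none over a TSS. The numbers were 13682 and 726 in LGE, 13756 and 638 in CGE, and 13497 and 995 in CTX. In MGE and CTX this count removes a larger share of the receptor genes than of protein-coding genes. The receptor genes thus stand less far above protein-coding genes there than by any peak within 2 kb.

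All marked kainate genes lay above the protein-coding median of covered bases in every list. As a percent of the window, however, only 2 of the 5 did so in each eminence and 1 of 4 in CTX, and the kainate medians of 11.3, 15.7, 16.2 and 10.4% (MGE, LGE, CGE, CTX) were below those of protein-coding genes. Grik4, a high-affinity subunit gene, differed least across regions of the 28 genes marked in all lists, with 1781, 1798, 1812 and 1833 bp (MGE, LGE, CGE, CTX), a ratio of highest to lowest of 1.03. Grik1 had 1295, 1380, 1552 and 1110 bp. Grik2 had 1743, 2126, 2366 and 1983 bp, from a peak at its gene 5′ end and one over a TSS 5357 bp downstream in each list. The second high-affinity subunit gene, Grik5, had 1565, 2166, 2232 and 1651 bp, but its peak also covered a TSS of the zinc finger gene Zfp574 in every list and cannot be assigned to either.

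Among the NMDA genes, the marks ranged from broad to nearly absent. Grin1, the obligate subunit gene, had 1750, 2025, 2768 and 853 bp (MGE, LGE, CGE, CTX). It too had 2 peaks in each list, and the one over a TSS 13790 bp into the gene was the stronger in all 4, with a −log10 q of 11.3 against 4.73 in MGE and 15.3 against 3.30 in CTX. Grin2a, a subunit gene whose expression grows after birth, had 1161, 2258, 2498 and 1817 bp. At this stage Grin2a and Grin2b, the main embryonic partner of Grin1, were both marked in every region.

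Grin2b varied more between lists than all but 1 of the genes marked in all 4. It had 746, 2106, 3000 and 392 bp (MGE, LGE, CGE, CTX), a ratio of highest to lowest of 7.65. Its LGE and CGE peaks covered the gene 5′ end, whereas its 2 MGE peaks (262 and 484 bp) and its CTX peak covered no annotated TSS. Grin3a, a subunit gene that lowers calcium entry, was even at 1689, 1662, 1651 and 1512 bp. Its 4 values lay within a ratio of 1.12.

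Grin2c and Grin2d had no peak over an annotated TSS in any list. Grin2c, a subunit gene of the adult cerebellum, had peaks of 455, 620, 385 and 188 bp (MGE, LGE, CGE, CTX), at different positions and with a −log10 q between 1.58 and 2.54. The peak of Grin2d recurred at nearly the same place in every list, from 276 bp to 302 bp past an internal TSS at its near edge, with widths of 760, 724, 752 and 740 bp in MGE, LGE, CGE and CTX. The −log10 q of this peak was 6.09, 5.18, 10.3 and 14.5. The CGE list held a further peak of 321 bp beside another internal TSS. Grin2d at its gene 5′ end alone was unmarked in all lists.

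Grid1, which encodes a delta subunit of the postsynaptic adhesion complex with neurexin and cerebellin, had 1459, 2113, 2342 and 1497 bp (MGE, LGE, CGE, CTX). Each value lay between the 78.2 and 87.1 percentile of marked protein-coding genes.

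The metabotropic genes ranged from broad to short marks. Grm8, of the presynaptic group III, had 1709, 2637, 2775 and 1829 bp (MGE, LGE, CGE, CTX). Grm7, of the same group, had 966, 1090, 2300 and 708 bp. Grm4, also of group III, had 1681, 2292, 3033 and 1084 bp in up to 3 peaks, none of them within 2 kb of its gene 5′ end. Its widest peak in LGE (2043 bp) and CGE (2217 bp) lay over a TSS 7677 bp inside the gene. In MGE and CTX this stretch held pieces, of which the shorter (254 and 171 bp) covered a TSS and the longer (862 and 461 bp) none. The peak with the highest −log10 q in MGE (6.06) and CTX (3.17) lay past another TSS, 18099 bp inside the gene.

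The group II genes Grm2 and Grm3 differed from each other. Grm3 was even, with 1270, 1460, 1582 and 1368 bp (MGE, LGE, CGE, CTX). Grm2 had 902, 1225 and 1541 bp in the eminences and a 138 bp peak in CTX that covered no TSS, and its ratio of highest to lowest of 11.2 was the largest of the 28 genes marked in all lists. The median ratio was 1.73 over these 28 genes and 1.49 over protein-coding genes marked in all lists.

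Receptor genes stood lower among protein-coding genes by −log10 q than by covered bases. The median of the highest −log10 q per marked gene, for MGE, LGE, CGE and CTX, was 6.06, 32.9, 69.9 and 6.59, while over marked protein-coding genes it was 19.3, 65.7, 140 and 22.9. A value above the protein-coding median was found at 1 MGE gene (Gria4), at 7 genes of the LGE list, at 8 of the CGE list and at no CTX gene. Covered bases were above the median at 20, 23, 24 and 17 genes in the same order. Each gene above the median of −log10 q was also above that of covered bases, and the 7 LGE genes were Gabra2, Gabrb1, Gabbr1, Gria2, Gria4, Grik1 and Grik2, to which CGE added Grik5. The median fold enrichment over the receptor genes was 5.09, 4.75, 5.20 and 4.83, below the protein-coding medians given above. Gria1 in LGE gave an extreme case, at the 87.3 percentile of covered bases and the 4.06 percentile of −log10 q. Gabra2 in CGE had the highest −log10 q of the set, at 228. Its fold enrichment of 7.70 was below the 9.78 of Gabrb1 in the same list.

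**Figure D4:**
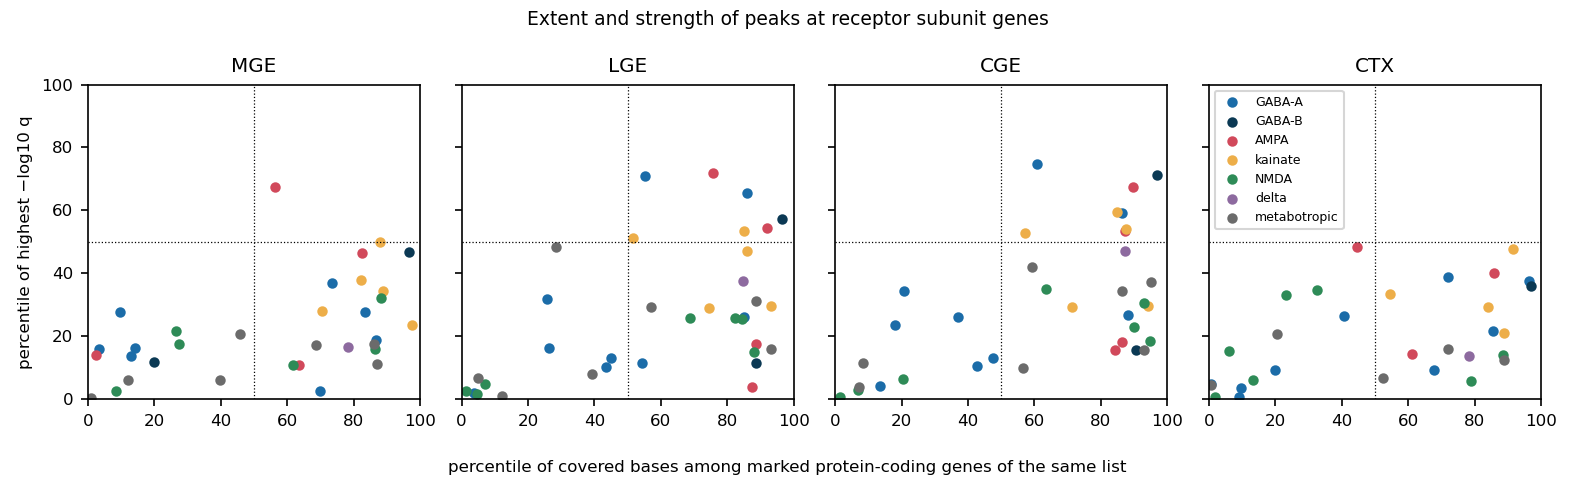
Percentile of covered bases (horizontal axis) against percentile of the highest −log10 q (vertical axis) of each marked receptor gene among marked protein-coding genes of the same list, 1 panel per region, with colours for receptor class and dotted lines at the median of protein-coding genes. Most points lie below the horizontal line, with 1 gene above it in the MGE panel, 7 in LGE and 8 in CGE.

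Synaptic partner genes and receptors of other transmitters were set beside the receptor subunits. The 37 partner genes, which encode scaffolds, auxiliary subunits and trafficking proteins of these receptors, were marked at 36 (MGE), 37 (LGE and CGE) and 34 (CTX) of their promoters. Grip2, a scaffold of AMPA receptors, had peaks in LGE and CGE only, and the auxiliary subunit genes Cacng3 and Cacng5 lacked one in CTX. The 38 receptors of other transmitters were marked 30, 31, 31 and 25, with 6 in no list. Among the 38, Glra2, a glycine receptor gene, had peaks in LGE and CGE, Htr3a, a serotonin-gated channel gene, in MGE and CTX, and the adrenergic and dopamine receptor genes Adra1d and Drd2 in the 3 eminences. For all 3 sets the count was lowest in CTX, and the −log10 q of the partner genes was also below the protein-coding median, at 9.08, 39.5, 97.8 and 10.1. Their median covered bases were 1519, 2061, 2227 and 1504.5 bp (MGE, LGE, CGE, CTX), above those of the receptor subunit genes in every list. A wide mark with a low −log10 q was thus not particular to the subunit genes. The receptors of other transmitters had 730.5, 1168, 1414 and 767 bp, below the protein-coding medians.

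Some receptor genes also held peaks inside the gene, more than 2 kb from every annotated TSS. This was so for 10 of the 36 genes in MGE (27.8%), 7 each in LGE and CGE (19.4%) and 9 in CTX (25.0%), beside 13.2%, 4.81%, 5.29% and 9.16% of protein-coding genes (MGE, LGE, CGE, CTX). Receptor genes are long, with a median of 216 kb against 17.4 kb. Per Mb of gene they held 1.71, 0.906, 0.906 and 1.21 such peaks, fewer than the 4.22, 1.19, 1.33 and 2.80 of protein-coding genes. Such a peak within 5 kb of the gene 3′ end in all 4 lists was found at 4 of the 36 genes (11.1%), beside 0.852% of protein-coding genes. The 5 kb limit was not planned, and the genes were not matched for length.

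The sequence around the gene 5′ ends was read for features that the choice of genes did not use. The ratio of observed to expected CpG within 500 bp of the gene 5′ end had a median of 0.609 over the 36 genes (range 0.0870 to 0.975). Protein-coding genes marked in all lists had a median of 0.724, and those marked in none 0.177. The 28 receptor genes marked in all lists had 0.611, the 7 marked in 3 lists 0.614, and Gabra6 0.161. A ratio of at least 0.6 was found at 15 of the 28 (53.6%), whereas it was found at 71.8% of protein-coding genes marked in all lists. The receptor genes marked in all lists were thus less CpG-rich at their 5′ ends than other genes so marked, by count and median and without a test.

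By class the median ratio was 0.780 for GABA-B (2 genes), 0.710 for NMDA, 0.618 for kainate, 0.615 for GABA-A, 0.457 for metabotropic and 0.450 for AMPA genes, with 0.894 at Grid1. This order depended on the window. From 250 bases before to 50 after the gene 5′ end, the medians were 0.775, 0.629, 0.956, 0.538, 0.436 and 0.647 for the same classes, so that kainate and AMPA genes then stood above NMDA genes. Grin1 had the highest ratio (0.975), and Grin2d (0.0870) and Gabra3 (0.0905) the lowest. The gene 5′ end of Gabra3 lies 602 bp before the TSS that its peaks covered. Gria1, at 0.214, had more than 2 kb of peak in LGE and CGE. These peaks began 132 bp (LGE) and 137 bp (CGE) past its gene 5′ end, which no list covered. In the shorter sequence printed above, around a covered TSS 423 bp into Gria1, the ratio was 0.463. At Grin2d, Gabra3, Gabra6 and Gria1 no list had a peak over the gene 5′ end itself. The same held at Grm4 (0.350), Grm6 (0.390) and Grin2c (0.710). The low ratios of Gabra3 and Gria1 were thus not centred on a marked TSS. Some other gene 5′ ends with a low ratio were covered. That of Grm3 (0.377) lay under a peak in every list. Those of Gria3 (0.407) and Grin2b (0.431) did so in LGE and CGE, under peaks of 2293 and 2300 bp at Gria3 and of 2106 and 3000 bp at Grin2b.

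**Figure D5:**
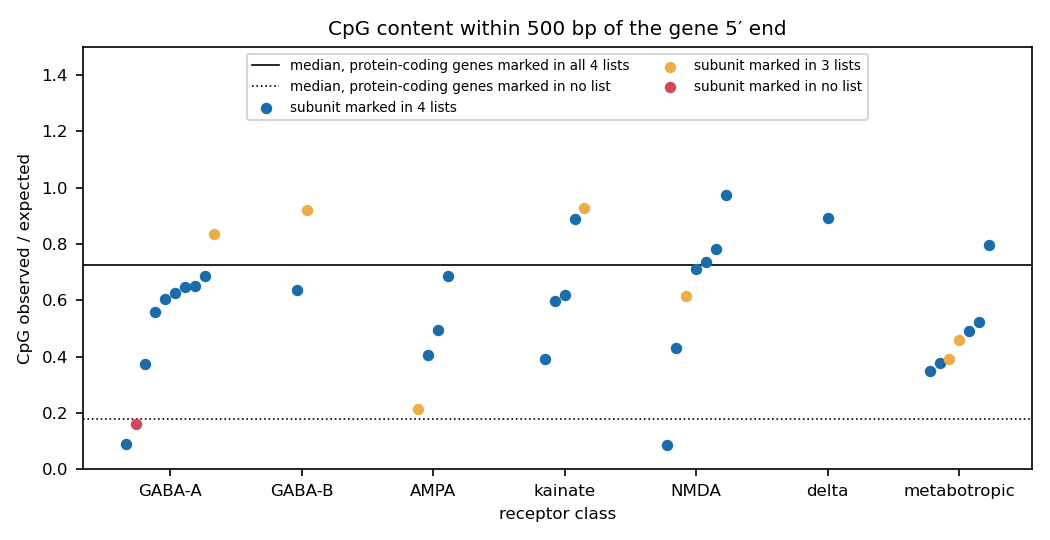
Ratio of observed to expected CpG (vertical axis) within 500 bp of the gene 5′ end of each receptor gene, by class (horizontal axis), with colour for the number of lists in which it was marked. Lines give the medians of protein-coding genes marked in all lists (0.724) and in none (0.177). Gabra6, marked in no list, stands at 0.161. Grin2d and Gabra3 stand lower and were marked in every list, but by peaks that did not cover the gene 5′ end.

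A TATA box, searched as TATAAA on the gene strand from 40 to 20 bases upstream of the gene 5′ end, was found at none of the 36 genes and at 2.27% of protein-coding genes. The core of the RE1 element bound by the repressor REST was searched on both strands within 1 kb of the gene 5′ end as CAGCACC, then any 2 bases, then GGACAG. It was found at 1 of the 36 genes, Grin1, and at 53 of 21938 protein-coding genes (0.242%). A match of letters is a description and shows no binding.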

How the data were processed

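H3K4me3 CUT&Tag libraries of E12.5 MGE, LGE, CGE and CTX were aligned by the authors with Bowtie2 to GRCm38/mm10, filtered for duplicates with Picard, merged across replicates and used to call broad peaks. Versions are not given in the sources used here. The labels state that equal numbers of nuclei of the 4 regions were pooled before the reactions, although each library is labelled with 1 region, and this was not resolved here. In the deposited lists, the authors' fold enrichment is a ratio of reads over the caller's background, and the authors' −log10 q comes from the same caller. Both are the authors' pooled values, and the reads behind each peak are not in the lists. The read totals per replicate in the study's methods were not used here.

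Peaks were converted to 1-based positions and intersected in Python 3.11.15 with all TSSs of GENCODE M21 (GRCm38), using a window of 2 kb and an overlap of 1 base. Percentiles are among protein-coding genes marked in the same list. CpG ratios and sequences were read from the GRCm38.p6 RefSeq genome, with 13 mitochondrial genes left out. The code was tested on simulated intervals and sequences. Figures were drawn with matplotlib 3.10.9.

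The 36 genes and the other lists were chosen with earlier results of these data known. All 36 genes are reported. From each other list, up to 4 genes marked in some lists were named, those in the fewest lists first and then in alphabetical order. Members are described without tests because each region has 1 list. Alternative windows, TSS sets, peak thresholds and list lengths were tried.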

Additional observations from a re-analysis of the deposited data

Results flagged for a closer look

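Peaks inside the receptor genes, more than 2 kb from their own TSSs and from every other annotated TSS, lie outside the TSS windows and were flagged as signal in data that the promoter comparisons do not use. There were 17 such peaks in the MGE list, 9 in the LGE list, 9 in the CGE list and 12 in the CTX list. Per Mb of gene these counts were below those of protein-coding genes in every list. Their part in any mark at the promoters was not tested.

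Several recurred at the far end of genes. Gabbr2, Grin2c, Grm4 and Grm5 each had such a peak within 5 kb of the gene 3′ end in all 4 lists, beside 0.852% of protein-coding genes. That limit was not planned, and the genes were not matched for length. At Gabbr2 the peak lay over a coding exon, with a width of 715, 673, 822 and 672 bp (MGE, LGE, CGE, CTX) and the MGE interval chr4:46664220-46664934. At Grm5 it lay over a coding exon as well, with 921, 846, 812 and 246 bp. Both genes had no promoter peak in CTX while the peak near the 3′ end was called there. At Grin2c the peak near the 3′ end was stronger than the one near its TSSs in each list, with a −log10 q of 24.0 against 1.93 in CGE and 4.16 against 1.63 in CTX.

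Others lay in introns. Grik4 had a peak of 1541, 1266, 1398 and 1488 bp (MGE, LGE, CGE, CTX) at about the same place, and Grik3 had one of 739, 505, 506 and 236 bp. In CTX, where Grik3 had no promoter peak, this intronic peak had a −log10 q of 4.88. The GRCm38 interval of the Grik4 peak in CGE is chr9:42897033-42898430, with a CpG ratio of 0.602. Grin2d also had a recurrent peak over a coding exon, of 626, 960, 957 and 323 bp (MGE, LGE, CGE, CTX).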

How the results depend on the processing

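Counts of marked receptor genes per list stayed within 1.5 times under all alternatives tried, from 24 to 33 in MGE, 33 to 35 in LGE and CGE and 24 to 30 in CTX. No paired analysis was possible because each region has 1 pooled list, and no replicate could be left out for the same reason. With the gene 5′ end only, 3 genes were marked in no list (Gabra6, Grin2d and Grm4). With peaks of at least 500 bp, 15 genes were marked in some lists only. Peaks of the MGE and CTX lists are narrow across the genome (median width 563 and 701 bp). The counts under each alternative were made for the receptor genes alone, with no share of protein-coding genes, and give no contrast with them. Leaving out peaks over no TSS of the gene, a choice added after seeing the data, gave 12 genes in some lists only and 3 in none. With 2 kb upstream only, median covered bases were 556, 734.5, 727 and 602 bp in MGE, LGE, CGE and CTX, since the window is shorter. The median CpG ratio of the 7 genes marked in 3 lists was 0.218 with the window of 250 bases before to 50 after, against 0.614. The 5 kb window, the 1 alternative that could add peaks, added none at the 5 genes absent in CTX or the 2 absent in MGE. The other alternatives only remove peaks or narrow windows, so they cannot fill these absences, but some added absences at the same genes. Counting only peaks over a TSS, Gabbr2, Gria1, Grm6 and Grin3b lacked one in both MGE and CTX. With peaks of at least 500 bp, Gabra5, Gria1 and Grm6 did. With lists cut to equal length by fold enrichment, Grik3 and Grm6 did. The split into genes absent in CTX alone and in MGE alone thus did not hold under every alternative. Leaving out the CTX list, 33 genes were marked in all remaining lists, and without MGE 30. Without peaks shared with another protein-coding gene, the counts were 32, 33, 33 and 28. With no read counts in the lists, depth limits how far an absent peak can be read as an absent mark.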
